A study of Homo sapiens with 4 samples.

Results

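Polyamine synthesis and the hypusination of EIF5A were followed through 10 genes, all of them found by symbol among the 35371 gene symbols of the deposited table and all of them above the filter on low values. The members are ODC1, AMD1, SRM and SMS, which make polyamines, SAT1, which breaks them down, OAZ1 and AZIN1, which control ODC1 protein, and EIF5A, DHPS and DOHH, the hypusinated protein and its modifying enzymes. They were chosen by function, with earlier results of these data known, and the rule itself uses no measured value. The cells were A2780, an established human ovarian cancer line grown as a monolayer in serum-containing medium. Of 4 libraries, 2 came from cells given GD-07, a small molecule that the series describes as an inhibitor of MYC, and 2 from controls, which the sample labels call untreated and the series text calls vehicle-treated. No dose or time of exposure is given in the sources used here, and both groups are the same line.

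Polyamines are small, positively charged molecules that bind nucleic acids and are needed for growth. Ornithine decarboxylase (ODC1) makes putrescine, and the spermidine and spermine synthases (SRM and SMS) extend it with aminopropyl groups that come from S-adenosylmethionine after AMD1 has decarboxylated it. Spermidine also donates the group that turns a single lysine of the translation factor EIF5A into hypusine, a residue EIF5A needs to keep ribosomes moving through difficult stretches such as runs of proline. ODC1 is a classical target gene of MYC, a transcription factor that binds the E-box CACGTG.

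The values are TPM, transcript abundance scaled to transcript length and to each library's total. The number of reads behind a TPM value is unknown, and higher or lower means relative to the other transcripts of the same library. Fold changes below are differences of group means of log2(TPM + 1), with limma's moderated standard error, and pass at a Benjamini-Hochberg adjusted p under 0.05 over the 13063 genes that averaged 1 TPM or more. In a bulk sample, fewer cells with a transcript and less of it per cell cannot be told apart.

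GD-07 replicate 2 stood apart in composition. Mitochondrially encoded transcripts took 6.52% of its TPM against 2.52% to 4.36% in the other libraries, and 14683 of its entries were listed at 0 against 11598 to 12346. Of 8 markers of ovarian carcinoma epithelium only EPCAM and KRT18 averaged at least 1 TPM, KRT7 was listed at 0 in all libraries and PAX8 did not exceed 0.121 TPM. The 8 together summed to 6.70 and 7.25 TPM in the controls and 9.38 and 9.81 TPM with GD-07. The summed level of 3 fibroblast markers was 34.3 to 41.9 TPM in the controls and 19.5 to 31.5 TPM with GD-07, and that of 4 leukocyte markers was 7.08 to 8.58 and 5.82 to 6.26 TPM, with CD3E listed at 0 throughout. The epithelial sum was thus higher, and the fibroblast and leukocyte sums lower, in both GD-07 libraries, and their part in the results was not tested. Endothelial markers summed to at most 0.693 TPM and erythroid markers to at most 1.79 TPM, and for both the groups overlapped. MYC mRNA was at 86.0 and 67.5 TPM in control cells, against 29.1 and 23.6 TPM under GD-07 (log2 fold change -1.50 ± 0.18, limma adjusted p = 0.0109).

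EIF5A was the only member that passed the test, and it fell to 60.9% of its control mean with GD-07. DHPS and DOHH, the enzymes that make hypusine, also lay below the controls in both GD-07 libraries without passing, as did ODC1, AMD1 and SRM. SMS, OAZ1 and AZIN1 overlapped between the groups, and SAT1 was above the controls in both GD-07 libraries without passing. The share of all 13063 tested genes that passed was 5.21%, with 264 higher and 417 lower, or 383 higher and 395 lower after quantile normalization. Of the tested genes 3.19% passed as lower, so 1 member of 10 is a count too small to set the members apart from that background. The groups did not overlap in 7 members, 6 lower and 1 higher, against 55.8% of all tested genes, 30.5% lower and 25.3% higher. At an unadjusted p under 0.05 there were 5 members, all lower, against 24.8% of all tested genes in either direction and 14.7% lower. The median log2 fold change of the members was -0.36, beside -0.04 over all tested genes.

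**Figure D1:**
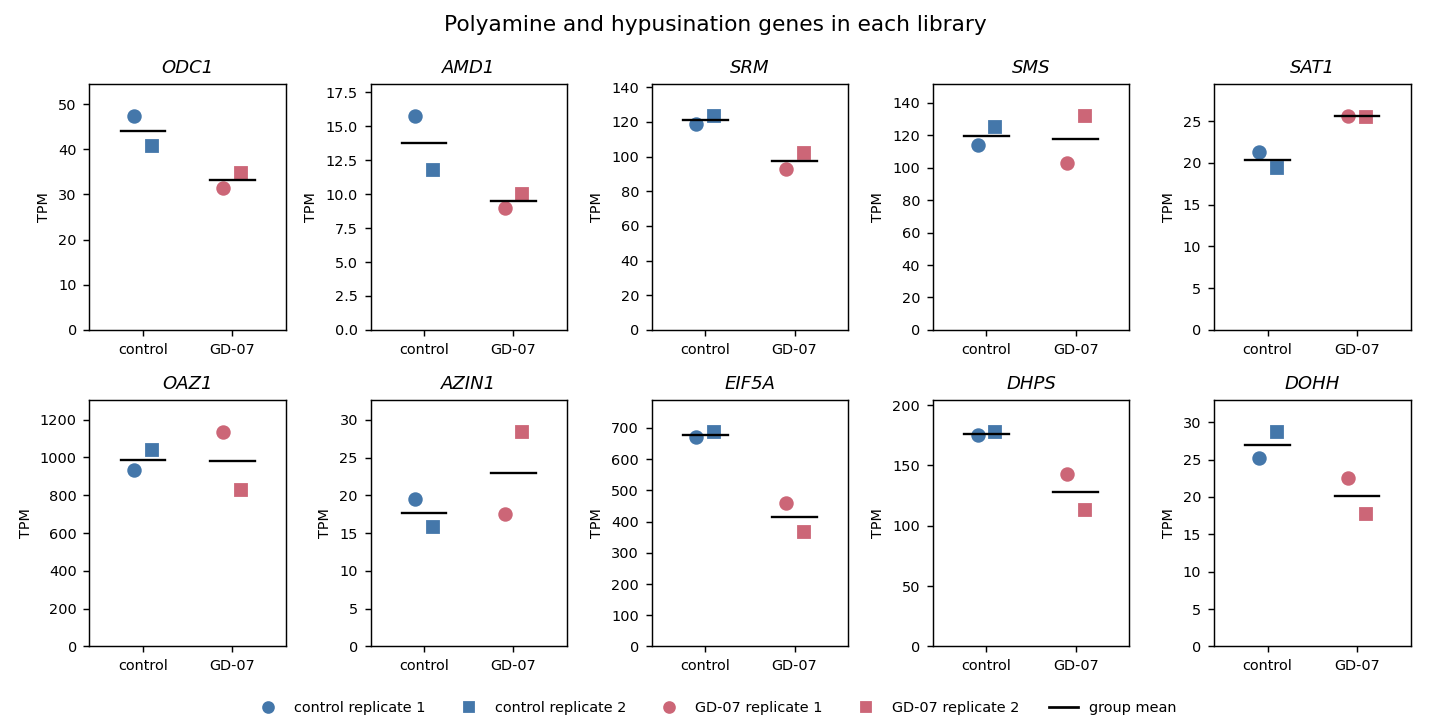
TPM of each member (vertical axes, linear and starting at 0, scaled separately) in the 2 control and 2 GD-07 libraries. Points are libraries and horizontal lines are group means. The GD-07 points of EIF5A lie at 460.5 and 366.0 TPM, below the closely spaced controls at 671.7 and 686.2 TPM, whereas the groups overlap for SMS, OAZ1 and AZIN1.

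EIF5A (ENSG00000132507) spans 7306999 to 7312463 of chromosome 17 (GRCh38, plus strand, as GENCODE 29 places it, like the other positions given here). Its level was 671.7 and 686.2 TPM in the controls and 460.5 and 366.0 TPM with GD-07. The controls lay close together, both GD-07 libraries were below them, and GD-07 replicate 2 was the lowest. The group means were 678.9 ± 10.2 and 413.3 ± 66.8 TPM (SD, n = 2 each). On the log2 scale EIF5A fell by 0.72 ± 0.16 (95% interval of the change -1.10 to -0.35, limma adjusted p = 0.0422). The direction held with each library left out in turn, with log2 fold changes of -0.89 to -0.56. The call ended in limma without control replicate 1 (adjusted p = 0.205), without control replicate 2 (0.163), after median-ratio rescaling of the libraries (0.0999), without limma's intensity trend (0.0743) and without the filter on low values (0.231). It remained under quantile normalization (limma adjusted p = 0.0407), after rescaling without mitochondrial and the 10 most abundant transcripts (0.0452), and with either GD-07 library left out (0.00138 without replicate 1, 0.0253 without replicate 2).

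EIF5A has near copies that matter for reading its level. The coding stretches below, from GENCODE 29 transcripts on GRCh38, run from codon 41 to codon 60 and show the modification site, with the codon of the lysine that becomes hypusine (codon 50) in capitals. They come from EIF5A (chr17:7309756-7311032, plus strand, with an intron in between), the gene EIF5AL1 (chr10:79512770-79512829, plus strand) and the paralog EIF5A2 (chr3:170907079-170907686, minus strand, with an intron in between).
EIF5A: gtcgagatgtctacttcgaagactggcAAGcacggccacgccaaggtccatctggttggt
EIF5AL1: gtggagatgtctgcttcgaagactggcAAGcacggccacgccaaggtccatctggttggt
EIF5A2: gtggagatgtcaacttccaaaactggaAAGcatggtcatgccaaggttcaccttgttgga
All 3 carry the same lysine codon. EIF5AL1 differed from EIF5A at 2 of these 60 bases and EIF5A2 at 12. Over the whole coding sequence, 457 of 462 bases of EIF5AL1 were identical to EIF5A (98.9%), compared with 330 of 462 aligned positions in EIF5A2 (71.4%), and 154 and 153 codons encode EIF5A and EIF5A2. Of the 2944 distinct 31-base words in EIF5A's annotated transcripts, 628 (21.3%) also occur in EIF5AL1 and 27.4% in any other gene, so reads from such stretches could be assigned to either. EIF5AL1 was listed at 0.675 and 0.602 TPM in control cells, against 0.427 and 0.299 TPM under GD-07, and the copies EIF5AP2, EIF5AP3 and EIF5AP4 did not exceed 0.812 TPM in any library. These listed levels are small beside EIF5A's own, but they rest on the same assignment of reads, which cannot be checked here. EIF5A also shares 241 of its 2815 exon bases with GPS2 on the opposite strand, which stood at 47.1 and 42.9 TPM in control libraries and at 44.9 and 41.1 TPM in GD-07 libraries. EIF5A2, a paralog with the same modification, stood at 4.65 and 5.09 TPM in control libraries and at 4.06 and 6.25 TPM in GD-07 libraries, and its groups overlapped (log2 fold change 0.05 ± 0.23, limma adjusted p = 0.922).

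Deoxyhypusine synthase (DHPS, ENSG00000095059) moves the spermidine-derived group onto EIF5A, and lies on the minus strand of chromosome 19 from 12675717 to 12681902. It was at 175.0 and 177.5 TPM without GD-07 and 143.1 and 112.7 TPM in its presence. Both GD-07 libraries lay below the nearly equal controls, with replicate 2 again the lowest. Its change of -0.47 ± 0.16 on the log2 scale (95% interval -0.83 to -0.11) did not pass (limma adjusted p = 0.111). With each library left out this change ranged from -0.64 to -0.30. Among those fits DHPS passed only without GD-07 replicate 1, where the spread comes from the control pair alone. Of DHPS exon bases 38.5% also belong to AC010422.8, an annotated gene on the same strand that was not matched by name in the table, so part of its reads cannot be assigned to it alone. A further 116 of its 3006 exon bases lie opposite WDR83, and no source used here says whether counting used strand.

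Deoxyhypusine hydroxylase (DOHH, ENSG00000129932) completes hypusine, and lies on the minus strand of chromosome 19 from 3490822 to 3500940. It was at 25.2 and 28.6 TPM in control cells, against 22.5 and 17.7 TPM under GD-07. The groups did not overlap, but the gap between them was smaller than the difference within the GD-07 pair. Its change was -0.41 ± 0.18 on the log2 scale (95% interval -0.82 to -0.00055, limma adjusted p = 0.201).

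The substrate and its enzymes kept the same order in every library, EIF5A above DHPS above DOHH. The ratio of EIF5A to DHPS, which does not depend on a library's total, was 3.84 and 3.87 in the controls and 3.22 and 3.25 with GD-07. That is a difference of -0.25 on the log2 scale with a pooled SD of 0.0088 between replicates, and the GD-07 libraries, which differed in both genes, were almost equal in their ratio. The ratio of EIF5A to DOHH was 26.7 and 24.0 in the controls and 20.5 and 20.7 with GD-07, a log2 difference of -0.30 (pooled SD 0.079). In both GD-07 libraries EIF5A was thus lower relative to each enzyme than in either control. Both were chosen after the values were seen, and with 2 libraries against 2 an exact two-sided permutation test cannot give less than p = 0.333, which both reached.

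**Figure D2:**
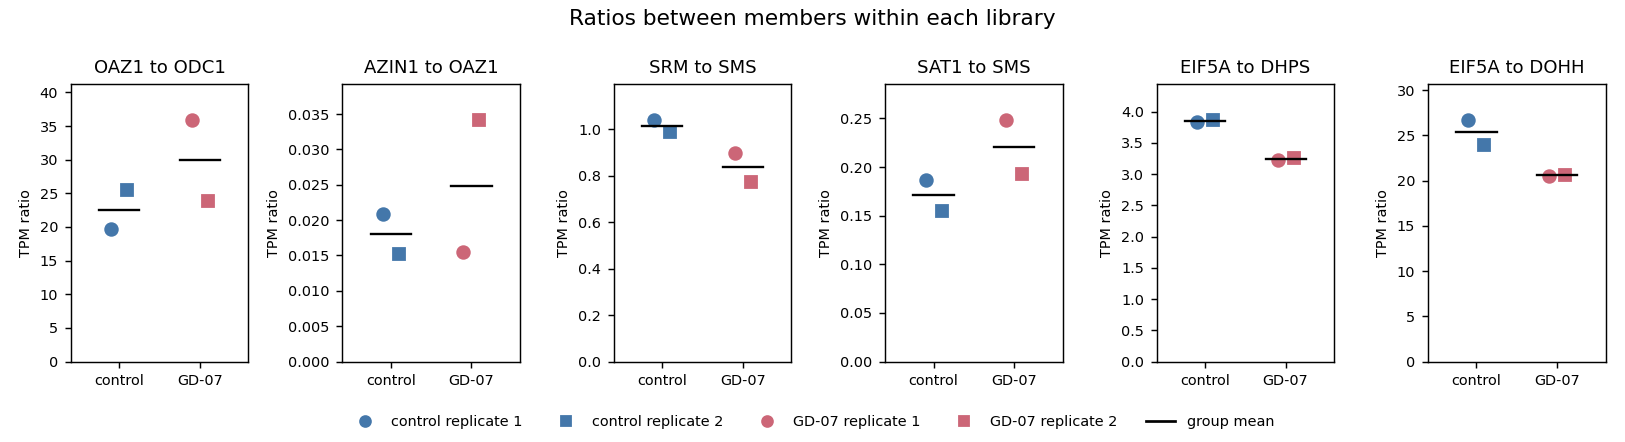
TPM ratio of the members named above each panel (vertical axes, linear and starting at 0) in each control and GD-07 library. Points are libraries and lines are group means. EIF5A to DHPS is 3.84 and 3.87 in the controls and 3.22 and 3.25 with GD-07, whereas OAZ1 to ODC1 and AZIN1 to OAZ1 overlap between the groups.

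ODC1 (ENSG00000115758), the rate-limiting enzyme that makes putrescine, lies on the minus strand of chromosome 2 from 10439968 to 10448504. It was at 47.4 and 40.7 TPM in control cells, against 31.5 and 34.7 TPM under GD-07. Both GD-07 libraries lay below both controls, and the gap between the groups was about as wide as the spread of the control pair. The means were 44.1 ± 4.74 and 33.1 ± 2.23 TPM (SD, n = 2 each), 75.1% of the control mean with GD-07. The log2 fold change of -0.40 ± 0.16 (95% interval -0.76 to -0.04) did not pass (limma adjusted p = 0.163), and it ranged from -0.51 to -0.29 with each library left out.

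AMD1 (ENSG00000123505), adenosylmethionine decarboxylase, supplies the aminopropyl donor and spans 110874770 to 110895713 of chromosome 6, plus strand. It had the lowest level of the members, at 15.8 and 11.7 TPM in the controls and 8.97 and 9.97 TPM with GD-07. The controls were the more spread pair, and control replicate 2 came close to the GD-07 libraries. Its log2 fold change was -0.48 ± 0.20 (95% interval -0.94 to -0.02, limma adjusted p = 0.182), and it was -0.28 without control replicate 1 and -0.68 without control replicate 2. Of its 31-base words 11.2% occur in other annotated genes, and its copies found by name did not exceed 0.554 TPM.

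Spermidine synthase (SRM, ENSG00000116649, chromosome 1 from 11054584 to 11060024, minus strand) stood at 118.6 and 123.6 TPM in control libraries and at 92.7 and 102.2 TPM in GD-07 libraries. Spermine synthase (SMS, ENSG00000102172, chromosome X from 21940573 to 21994835, plus strand) stood at 113.9 and 125.0 TPM in control libraries and at 103.1 and 132.0 TPM in GD-07 libraries. SRM lay below the controls in both GD-07 libraries, whereas the GD-07 libraries of SMS bracketed the controls. The log2 fold change of SRM was -0.31 ± 0.14 (95% interval -0.63 to 0.0083, limma adjusted p = 0.212). For SMS it was -0.03 ± 0.16 (95% interval -0.40 to 0.34, limma adjusted p = 0.928), and its sign turned under 3 rescalings and in some fits without a library, so no direction can be given.

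The control libraries held SRM and SMS at about the same level per transcript length, with a ratio of 1.04 and 0.989. With GD-07 the ratio was 0.899 and 0.774, below both controls, a log2 difference of -0.28 (pooled SD 0.11, exact two-sided permutation p = 0.333, the smallest this design allows). Of SMS's 31-base words 33.9% occur in other annotated genes, mostly AL354714.2, which was not matched by name in the table, so the level of SMS is less certain than that of SRM, with 1.03% shared.

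SAT1 (ENSG00000130066, chromosome X from 23783173 to 23786226, plus strand) acetylates spermidine and spermine, which marks them for oxidation or export. It was at 21.3 and 19.4 TPM without GD-07 and 25.6 and 25.5 TPM in its presence. It was the only member whose GD-07 libraries both lay above both controls, and the GD-07 pair was tightly spaced. Its change of 0.32 ± 0.16 on the log2 scale (95% interval -0.05 to 0.68) did not pass (limma adjusted p = 0.258), and it was 0.25 to 0.38 with each library left out. The ratio of SAT1 to SMS was 0.187 and 0.155 in the controls and 0.249 and 0.193 with GD-07, where the lower GD-07 library was only just above the higher control (exact two-sided permutation p = 0.333).

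Ornithine decarboxylase antizyme (OAZ1, ENSG00000104904, chromosome 19 from 2269509 to 2273490, plus strand) binds ODC1 and delivers it to the proteasome. Full-length antizyme is made only when ribosomes shift frame at an internal stop codon, a step that polyamines promote, so its mRNA level does not give its protein level. The site is shown because this control acts after the step that was measured, with the stop codon in capitals, from a GENCODE 29 transcript (chr19:2271416-2271475, plus strand).
OAZ1: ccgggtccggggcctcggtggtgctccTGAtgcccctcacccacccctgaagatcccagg
OAZ1 mRNA was the most abundant of the members in every library, at 932.9 and 1037 TPM in the controls and 1133 and 829.0 TPM with GD-07. The GD-07 libraries lay on either side of both controls. The log2 fold change was -0.02 ± 0.19 (95% interval -0.45 to 0.41, limma adjusted p = 0.959), and leaving out a GD-07 library moved it to 0.20 (replicate 2 left out) or -0.25 (replicate 1 left out), so no direction can be given.

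AZIN1 (ENSG00000155096, chromosome 8 from 102826357 to 102893864, minus strand) resembles ODC1, has no decarboxylase activity and frees ODC1 by binding antizyme. It was at 19.5 and 15.8 TPM in control cells, against 17.5 and 28.3 TPM under GD-07. GD-07 replicate 2 alone was above the controls. The log2 fold change was 0.33 ± 0.24 (95% interval -0.21 to 0.86, limma adjusted p = 0.424), and without GD-07 replicate 2 it was -0.0073.

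The antizyme transcript outnumbered that of its target throughout. OAZ1 to ODC1 was 19.7 and 25.5 in the controls and 35.9 and 23.9 with GD-07, so the groups overlapped (exact two-sided permutation p = 0.667). AZIN1 to OAZ1 was 0.0209 and 0.0152 in the controls and 0.0154 and 0.0342 with GD-07, which overlapped as well (exact two-sided permutation p = 0.667). GD-07 replicate 1 had the highest OAZ1 level and the highest OAZ1 to ODC1 ratio, and GD-07 replicate 2 the highest AZIN1 level.

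Ordered by TPM, the controls ran OAZ1, EIF5A, DHPS, SRM, SMS, ODC1, DOHH, SAT1, AZIN1 and AMD1. Neighbours in this order whose control ranges overlapped were SRM with SMS and SAT1 with AZIN1. With GD-07 the order was OAZ1, EIF5A, DHPS, SMS, SRM, ODC1, SAT1, AZIN1, DOHH and AMD1, and the ranges overlapped for DHPS with SMS, SAT1 with AZIN1 and AZIN1 with DOHH. DOHH, above SAT1 and AZIN1 in both controls, lay below SAT1 in both GD-07 libraries.

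The fold changes of the members split by library as well as by group. Leaving out GD-07 replicate 2 brought EIF5A, DHPS and DOHH closer to 0 (-0.56, -0.30 and -0.24), and leaving out GD-07 replicate 1 moved them away from it (-0.89, -0.64 and -0.57). ODC1, AMD1 and SRM moved the other way, to -0.47, -0.55 and -0.38 in the first case and -0.33, -0.41 and -0.24 in the second. The hypusination genes were thus lowest in GD-07 replicate 2 and these polyamine synthesis genes in GD-07 replicate 1.

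**Figure D3:**
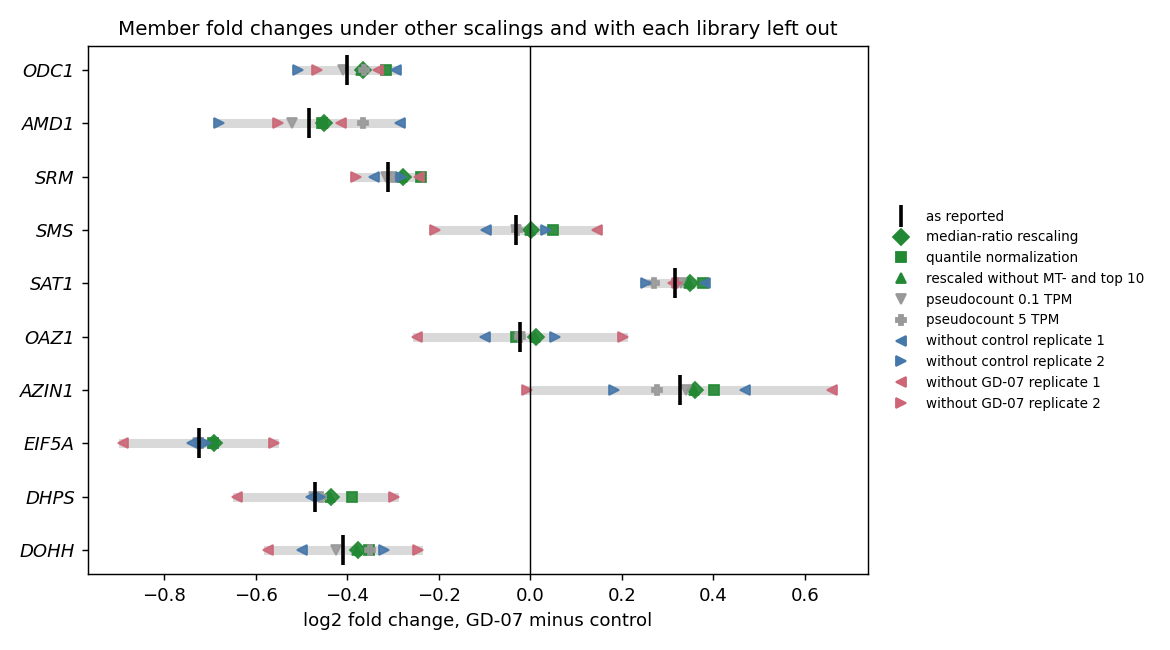
Log2 fold change of each member (horizontal axis, GD-07 minus control, on the log2 scale) as reported (black bar), with other scalings or pseudocounts and with each library left out; grey bars span all fits apart from the crossed pairing. EIF5A stays between -0.89 and -0.56, whereas SMS, OAZ1 and AZIN1 reach both sides of 0.

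Likeness of profile was measured as the Euclidean distance between log2(TPM + 1) values over the 4 libraries, each gene centred on its own mean, among 13062 other genes. The genes most like EIF5A were BYSL (distance 0.0242), a ribosome assembly factor, and PKM (0.0339), a pyruvate kinase. BYSL stood at 33.4 and 33.9 TPM in control libraries and at 22.9 and 18.0 TPM in GD-07 libraries (limma adjusted p = 0.0507). Those most like ODC1 were TMTC4 (distance 0.0154), MRPL42 (0.0199), a mitochondrial ribosomal protein, and ARID3A (0.0223), a DNA-binding protein. Of the members, DHPS was nearest to EIF5A (distance 0.255, rank 397) and AMD1 nearest to ODC1 (distance 0.152, rank 516), so neither was among the closest profiles over these 4 libraries.

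Other genes of the pathway were taken from 5 lists of 28 genes, of which 24 were kept and 1 passed, as higher. That gene was SAT2, related to SAT1 and named for spermidine acetylation, although the human enzyme is known to act mainly on thialysine. SAT2 (ENSG00000141504, chromosome 17 from 7626234 to 7627876, minus strand) was at 100.4 and 122.8 TPM in control cells, against 244.6 and 196.8 TPM under GD-07. Both GD-07 libraries lay well above both controls. The means were 111.6 ± 15.9 and 220.7 ± 33.8 TPM (SD, n = 2 each). SAT2 thus rose by 0.98 ± 0.17 on the log2 scale (95% interval 0.59 to 1.36, limma adjusted p = 0.0227). The call ended without control replicate 1 (log2 fold change 0.83, limma adjusted p = 0.0636) and without the filter on low values (limma adjusted p = 0.220). The share of all tested genes that passed as higher was 2.02%.

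In the list of polyamine breakdown and transport, 1 of 7 kept genes rose (SAT2) and 6 did not pass, with a median log2 fold change of 0.16. The oxidases PAOX, which acts on acetylated polyamines, and SMOX, which acts on spermine, were at 6.84 and 7.36 and at 7.87 and 7.61 TPM in the controls. With GD-07 they were at 8.93 and 9.49 TPM (PAOX) and at 9.96 and 8.64 TPM (SMOX), above both controls without passing (limma adjusted p = 0.303 and 0.483).

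None of 7 kept genes of S-adenosylmethionine supply and methionine salvage passed in limma, with 2 at an unadjusted p under 0.05, and 6 had negative values (median -0.30). Of all tested genes 24.8% reached that unadjusted p and 7026 of 13063 had negative values, and a list of 7 is too small to set apart from them. MAT2A, which makes S-adenosylmethionine, came closest. It stood at 123.7 and 100.8 TPM in control libraries and at 75.5 and 69.2 TPM in GD-07 libraries, below both controls, a difference of -0.62 ± 0.16 on the log2 scale (limma adjusted p = 0.0533). MAT2A passed in limma with a filter at a mean of 5 TPM (adjusted p = 0.0374) and with the replicate number as a block (0.0367). It did not pass after median-ratio rescaling (limma adjusted p = 0.0717) or quantile normalization (0.0707). Nor did it pass without limma's trend (limma adjusted p = 0.102) or without the filter on low values (0.234). With each library left out the log2 fold change of MAT2A was -0.77 to -0.47. It passed with either GD-07 library left out, where the spread comes from the control pair alone, but not with either control left out. ADI1, a dioxygenase of methionine salvage, stood at 61.5 and 67.0 TPM in control libraries and at 107.1 and 83.8 TPM in GD-07 libraries. Its log2 fold change of 0.55 ± 0.16 did not pass (limma adjusted p = 0.0804), and it ranged from 0.38 to 0.73 with each library left out. Among the fits with a library left out, ADI1 passed only without GD-07 replicate 2.

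The antizyme paralogs and the second antizyme inhibitor gave 3 kept genes, of which none passed in limma. An unadjusted p under 0.05 was reached by 1 of them, against 24.8% of all tested genes. OAZ2, a paralog of OAZ1, was at 77.7 and 76.1 TPM without GD-07 and 108.5 and 107.6 TPM in its presence. Each pair was tightly spaced and the groups were well apart, with a log2 fold change of 0.49 ± 0.14 (95% interval 0.17 to 0.80, limma adjusted p = 0.0732). With each library left out the log2 fold change of OAZ2 stayed at 0.47 to 0.50. OAZ2 did not pass without limma's trend (limma adjusted p = 0.133) or without the filter on low values (0.220). It passed with either GD-07 library left out, where the spread comes from the control pair alone, but not with either control left out. AZIN2 was low, at 2.20 and 2.28 TPM in the controls and 2.79 and 2.95 TPM with GD-07 (limma adjusted p = 0.466).

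Of 5 kept genes of ornithine and arginine supply none passed in limma, with a median of -0.06. There was 1 at an unadjusted p under 0.05, against 24.8% of all tested genes. OAT, which interconverts ornithine and glutamate semialdehyde, stood at 54.2 and 52.8 TPM in control libraries and at 63.7 and 73.3 TPM in GD-07 libraries (limma adjusted p = 0.188). ARG2, the mitochondrial arginase that makes ornithine, stood at 7.70 and 7.78 TPM in control libraries and at 5.37 and 5.65 TPM in GD-07 libraries (limma adjusted p = 0.207). Of the EIF5A paralogs and export genes, neither EIF5A2 nor the exportin XPO4, which carries EIF5A out of the nucleus, passed (limma, with none at an unadjusted p under 0.05). XPO4 stood at 4.84 and 3.87 TPM in control libraries and at 3.32 and 3.82 TPM in GD-07 libraries (limma adjusted p = 0.547).

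**Figure D4:**
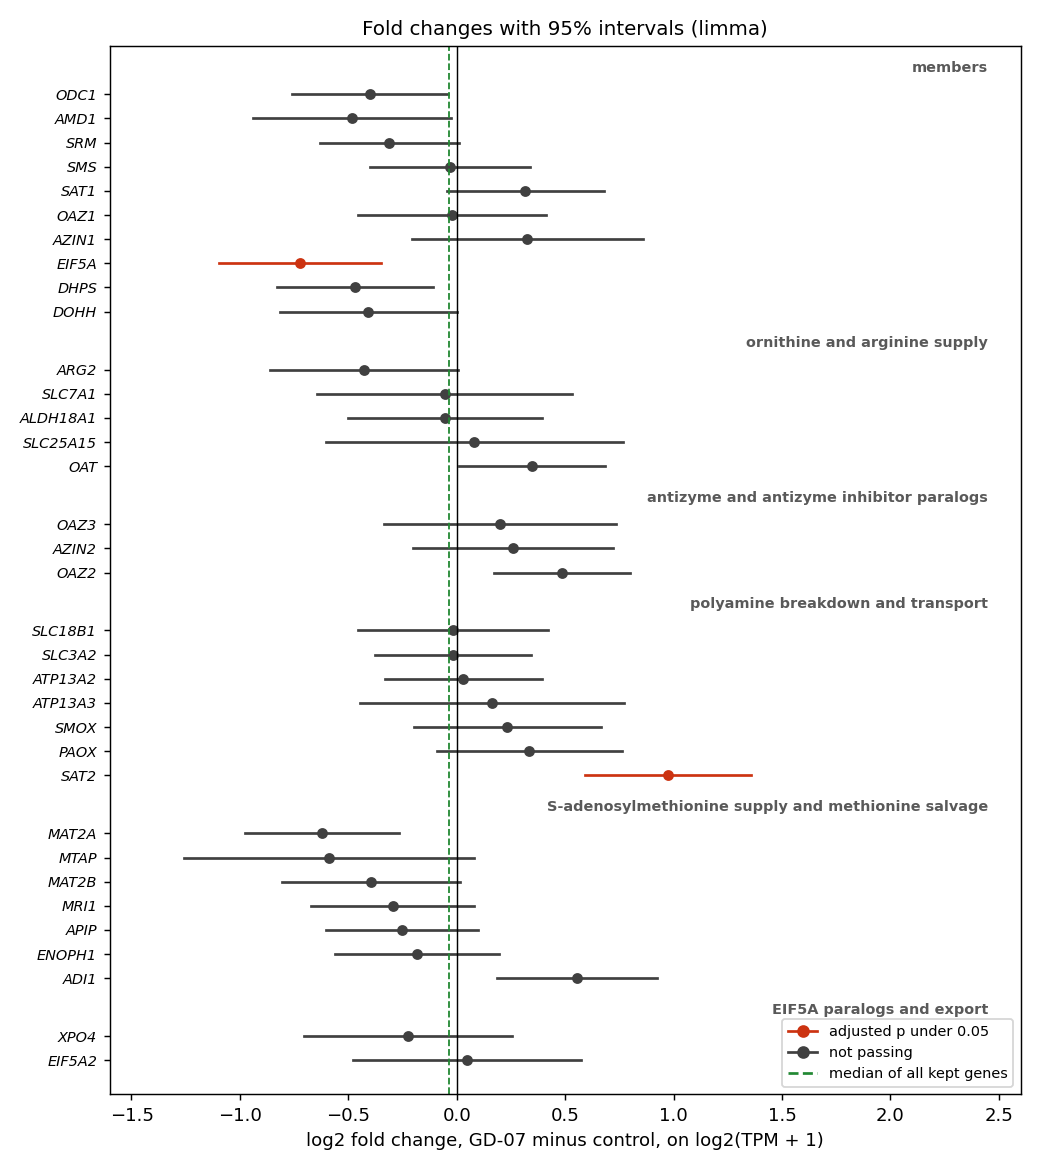
Log2 fold changes (horizontal axis, GD-07 minus control, on log2(TPM + 1)) of the 10 members and the 24 kept genes of the other pathway lists, with 95% intervals from limma. EIF5A (-0.72) and SAT2 (0.98) are the genes that passed, and the dashed line marks the median of all tested genes at -0.04.

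The E-box CACGTG was looked for in the RefSeq promoter windows of GRCh38.p14, which run from 250 bases before to 50 bases after an annotated start. The motif reads the same on both strands. Of 35116 windows 7.26% hold it, as do 8.77% of the 27305 genes with a window. Windows were found for 9 of the 10 members, and the motif stood in 3 of these, ODC1, SRM and DOHH. The stretches that hold it are shown with the motif in capitals, to set these members beside the others, such as EIF5A, whose 6 windows do not contain these letters. They lie at chr2:10447999-10448078 (ODC1), chr1:11060175-11060254 (SRM) and chr19:3500675-3500754 (DOHH), all on the minus strand.
ODC1: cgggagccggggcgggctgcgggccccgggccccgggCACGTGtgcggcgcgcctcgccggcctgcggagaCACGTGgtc
SRM: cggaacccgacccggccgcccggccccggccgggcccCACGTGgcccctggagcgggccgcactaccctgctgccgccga
DOHH: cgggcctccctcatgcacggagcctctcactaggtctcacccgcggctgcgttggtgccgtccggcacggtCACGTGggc
The ODC1 window has 2 copies, starting 29 bases before and 5 bases after the more downstream of its annotated starts, and its other window has none. In SRM the motif starts 199 bases before the start, and in DOHH 9 bases before it. The members with the motif had log2 fold changes of -0.40, -0.31 and -0.41, none of which passed. The 6 members with windows and no match were EIF5A at -0.72, which passed, and AMD1 at -0.48, DHPS at -0.47, SMS at -0.03, OAZ1 at -0.02 and SAT1 at 0.32, which did not. A match is a sequence of letters and shows no binding, and binding was not measured here. The lack of a match holds for this motif in these windows alone, and sequence outside them was not searched.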

How the data were processed

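Polyadenylated RNA of A2780 cells was read as 150 bp pairs in 2 control and 2 GD-07 libraries, per the labels' protocols. The authors deposited TPM per gene symbol. The submitters' processing notes name GRCh38, limma 3.60.4, Subread and kallisto; what each did is not given in the sources used here. Columns summed to 912781 to 918646 TPM. Depth is unknown, so no counting interval is given.

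Genes averaging 1 TPM or more (13063 of 35371) were compared as log2(TPM + 1) with limma 3.58.1 in R 4.3.3 (eBayes with trend, two-sided, Benjamini-Hochberg adjustment over all of them). Whether replicates were grown separately is not in the labels. The p-values therefore reflect variation among these 4 libraries, possibly technical. With a library left out, the lone one of its group is assumed to vary like the other pair.

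Members and lists were chosen with earlier results of these data known. Named genes are all members, MYC, the genes of each other list that passed plus the next 2 by p, and the 3 profiles nearest to ODC1 and EIF5A; 1 gene that the rule takes is not reported here. Positions and 31-base words come from GENCODE 29, promoters from RefSeq, and coding sequences were aligned with Biopython 1.88. Alternatives were 2 pseudocounts, 2 filters, 3 rescalings, no trend, each library left out and the replicate number as a block.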

Additional observations from a re-analysis of the deposited data

How the results depend on the processing

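EIF5A was the only member called in the reported fit, and the count of members called was 0 without the filter on low values, 0 after median-ratio rescaling and 0 without limma's trend (limma, with 5, 4 and 3 members at an unadjusted p under 0.05), and 0 to 2 with each library left out. Over all genes 681 were called, 0 of 26773 without the filter (limma, 3970 at an unadjusted p under 0.05), 432 after rescaling without mitochondrial and the 10 most abundant transcripts, 385 without the trend and 310 to 2217 with each library left out, where the spread comes from the other pair alone. The members' median log2 fold change of -0.36 was -0.33 with a pseudocount of 5 TPM, -0.32 after median-ratio rescaling, -0.28 after quantile normalization, -0.32 after rescaling without the abundant transcripts and -0.30 to -0.27 with each library left out. SMS turned to 0.0024 after median-ratio rescaling, 0.049 after quantile normalization and 6.8e-05 after rescaling without the abundant transcripts, and OAZ1 to 0.012 and 0.0099 in the first and last of these. With each library left out SMS ran from -0.21 to 0.15, OAZ1 from -0.25 to 0.20, AZIN1 from -0.0073 to 0.66, EIF5A2 from -0.21 to 0.31 and the log2 ratio of AZIN1 to OAZ1 from -0.21 to 0.94. The cause of these shifts was not tested.

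No source used here says whether same-numbered libraries were paired. Their deviations from the group means correlated at r = -0.279 across genes. With 2 libraries per group this is a single value, and the crossed pairing has the opposite sign by construction, so it cannot decide the question. With the replicate block 912 genes and 1 member (EIF5A, limma adjusted p = 0.0367) were called, and of the members and named pathway genes the call of MAT2A alone changed. A crossed pairing as a replicate block, added after seeing the data, called 2934 genes and 4 members. Depth is unknown, so what it limits cannot be stated.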
